A study of Mus musculus with 9 samples.

Results

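BAP1 binding was examined at 48 mouse genes of DNA repair, out of 22367 protein-coding genes of the annotation. The genes were taken from a list of symbols grouped in 6 pathways: 10 Fanconi, 14 homologous recombination, 5 end joining, 4 mismatch, 7 base excision and 8 nucleotide excision repair genes. All 48 symbols were found in the annotation. In 44 of the 48 genes at least 1 BAP1 peak lay within 1 kb of a transcription start site (TSS) of the gene, which is here called a gene-proximal peak. The exceptions were Fanca, Fancg, Xrcc5 and Ercc4. Such a peak was found at 39.6% of all protein-coding genes and at 75.5% of those with a CpG-rich promoter, as defined below.

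The study mapped BAP1 by chromatin immunoprecipitation and sequencing (ChIP-Seq) in Ba/F3, a mouse B cell lineage precursor line that grows in interleukin-3. The peaks come from 2 of the 9 samples of the series, wild type Ba/F3 cells precipitated with anti-BAP1 and a Ba/F3 line that stably expresses triple-FLAG-tagged murine BAP1, precipitated with anti-FLAG M2. The tagged line was kept under puromycin selection. The other samples, 4 of input DNA and 3 of histone H2AK119ub in wild type cells and 2 Bap1-knockout Ba/F3 clones, were not analysed here. Both precipitations were joined in 1 list of 13164 peaks, each 200 bp wide and without a height or score, so that a gene either has a peak or has none and no spread between replicates can be given. From the deposited list alone a peak cannot be assigned to either antibody, nor to the cell's own or the introduced BAP1. The list holds no expression values, so the cell type could not be checked against its markers.

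DNA repair is carried out by separate pathways for separate lesions. Base excision repair removes single damaged bases, nucleotide excision repair removes bulky lesions in a short oligonucleotide, and mismatch repair corrects copying errors after replication. The Fanconi pathway opens cross-links between both strands, while homologous recombination and end joining mend double-strand breaks, from a sister copy or by direct ligation. B cell precursors depend on end joining to finish the rearrangement of their antigen receptor genes. BAP1, named for its association with BRCA1, removes ubiquitin from histone H2A (the mark H2AK119ub) and is recruited to chromatin with partner proteins such as HCF1 and ASXL1.

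The DNA under the peaks is shown for 7 genes, in mm9 (NCBIM37) coordinates and read 5′ to 3′ in the direction of the gene, as the bases of the peak nearest to the TSS that lie outside annotated exons. They were chosen because 6 of the genes are among the 9 with several peaks and Mre11a has 1 of the peaks closest to a TSS. Capitals mark matches, on either strand, to the 10 motifs spelled out further on.
Mre11a, chr9:14588990-14589097, plus strand: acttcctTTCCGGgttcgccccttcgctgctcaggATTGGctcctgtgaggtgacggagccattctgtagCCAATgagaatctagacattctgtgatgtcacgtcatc
Fancm, chr12:66176431-66176592, plus strand: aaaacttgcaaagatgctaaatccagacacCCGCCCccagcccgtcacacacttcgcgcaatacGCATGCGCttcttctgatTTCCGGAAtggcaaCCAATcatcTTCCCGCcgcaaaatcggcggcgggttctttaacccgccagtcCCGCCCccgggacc
Prkdc, chr16:15637609-15637808, plus strand: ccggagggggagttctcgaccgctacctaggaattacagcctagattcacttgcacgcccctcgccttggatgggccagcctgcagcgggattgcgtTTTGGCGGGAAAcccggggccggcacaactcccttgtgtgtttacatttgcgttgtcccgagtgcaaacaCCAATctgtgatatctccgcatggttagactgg
Msh6, chr17:88374212-88374389, plus strand: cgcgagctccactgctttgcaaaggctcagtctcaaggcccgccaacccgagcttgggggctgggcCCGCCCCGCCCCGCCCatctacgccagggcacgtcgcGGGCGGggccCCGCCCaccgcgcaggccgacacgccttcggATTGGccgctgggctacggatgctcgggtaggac
Xpa, chr4:46209184-46209318, minus strand: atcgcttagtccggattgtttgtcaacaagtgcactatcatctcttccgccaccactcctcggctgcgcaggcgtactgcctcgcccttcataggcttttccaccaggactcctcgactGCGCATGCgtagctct
Lig4, chr8:9976324-9976484, minus strand: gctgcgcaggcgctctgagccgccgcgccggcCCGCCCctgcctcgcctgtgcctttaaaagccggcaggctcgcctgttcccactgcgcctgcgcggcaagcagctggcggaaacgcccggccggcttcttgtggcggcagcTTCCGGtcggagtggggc
Fancc, chr13:63532564-63532736, minus strand: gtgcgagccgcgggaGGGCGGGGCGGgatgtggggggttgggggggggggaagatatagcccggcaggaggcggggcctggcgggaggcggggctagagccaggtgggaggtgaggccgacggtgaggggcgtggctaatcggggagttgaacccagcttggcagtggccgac
The stretch of Mre11a, the nuclease of the break-sensing complex, holds an ETS match and an NFY match on each strand within 108 bases. Fancm, the DNA translocase that anchors the Fanconi core complex, has NRF1, ETS, NFY, E2F and SP/KLF matches within 162 bases. The 12 capitals that follow each other in Prkdc, the catalytic subunit of the DNA-dependent protein kinase, are overlapping E2F matches. Msh6, a mismatch recognition subunit, holds a row of SP/KLF matches, Xpa a single NRF1 match close to its TSS, and Fancc overlapping SP/KLF matches in a stretch rich in G. Ercc4, a gene without a peak, is shown beside them, and the 160 bases before its coding TSS hold 1 NFY match. The stretch from 250 bp before to 50 bp after that TSS also holds an ETS match, so this gene is no motif-free contrast.
Ercc4, chr16:13109617-13109776, plus strand: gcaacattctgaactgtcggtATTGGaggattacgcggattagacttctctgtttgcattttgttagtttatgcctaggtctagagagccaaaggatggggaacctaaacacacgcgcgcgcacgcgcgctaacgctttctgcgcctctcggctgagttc

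The share of repair genes with a gene-proximal peak was 91.7% (44 of 48, 95% Wilson interval 80.4 to 96.7). Over all protein-coding genes it was 39.6% (8850 of 22367, 38.9 to 40.2). Of the protein-coding genes with a peak, 85.4% have a CpG-rich promoter, so the share was also taken over the 10013 protein-coding genes with a CpG ratio of at least 0.6, where it was 75.5% (74.7 to 76.3). Of the 42 repair genes above the same limit 40 had a peak (95.2%, 84.2 to 98.7). The ratio was taken at the TSS nearest to a peak. This leaves out Ercc4, which has no peak and a ratio of 0.880 at its coding TSS. Wilson intervals cover counting error only, and as there is 1 list without replicates, no test was made of these differences. Brca1 lost its call with a window of 500 bp, Fancl and Rad54l lost theirs with 1 TSS per gene, and Fancg gained one with a window of 5 kb. By pathway the share was 100% in homologous recombination (14 of 14), mismatch (4 of 4) and base excision repair (7 of 7), 87.5% in nucleotide excision repair (7 of 8), and 80.0% in both the Fanconi pathway (8 of 10) and end joining (4 of 5). The intervals of the pathways overlap one another, the widest being that of end joining, from 37.6 to 96.4.

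**Figure D1:**
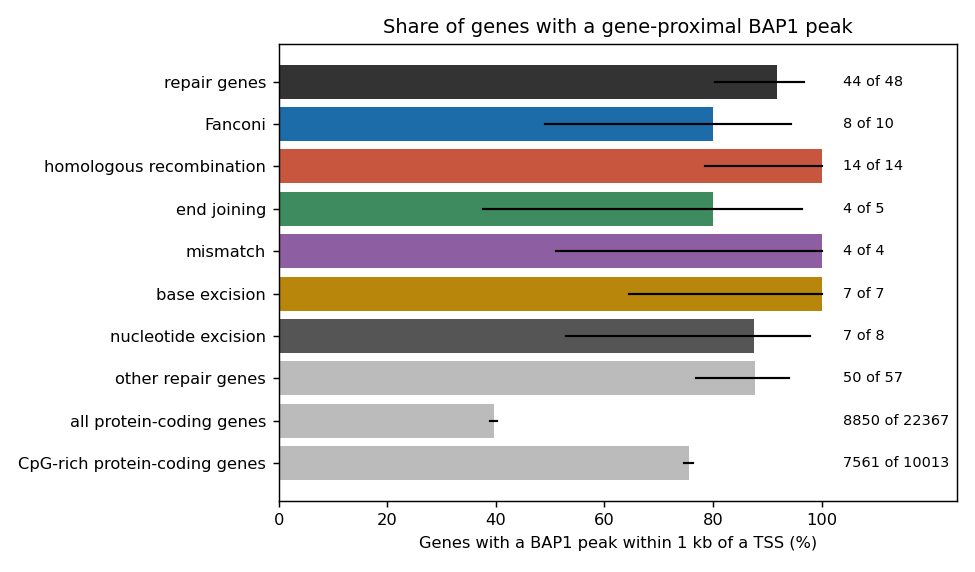
Share of genes (%) with a BAP1 peak within 1 kb of a TSS, for the 48 repair genes, their 6 pathways, 57 other repair genes and 2 backgrounds. Bars give the share, black lines the 95% Wilson interval, and the counts stand at the right. The repair genes reach 91.7%, against 39.6% of all and 75.5% of CpG-rich protein-coding genes.

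The place of each peak is given by its middle, counted from the nearest TSS of the gene in the direction of transcription. Among the 44 genes the median position of the nearest peak was -45.0 bp (quartiles -72.2 and -24.8), and the median distance from the TSS was 55.0 bp. The middle lay upstream in 39 genes (88.6%), and in 33 genes (75.0%) the 200 bp of the peak covered the TSS itself. Over all protein-coding genes with a gene-proximal peak, the median position was -32.5 bp, 75.0% of peaks lay upstream and 77.7% covered the TSS. By annotation, the middle of the nearest peak fell outside the transcribed gene in 32 of the repair genes, in an intron in 7 and in a noncoding exon or untranslated part in 5. The genes lie on 16 chromosomes, and no peak was within 1 kb of more than 1 of them.

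**Figure D2:**
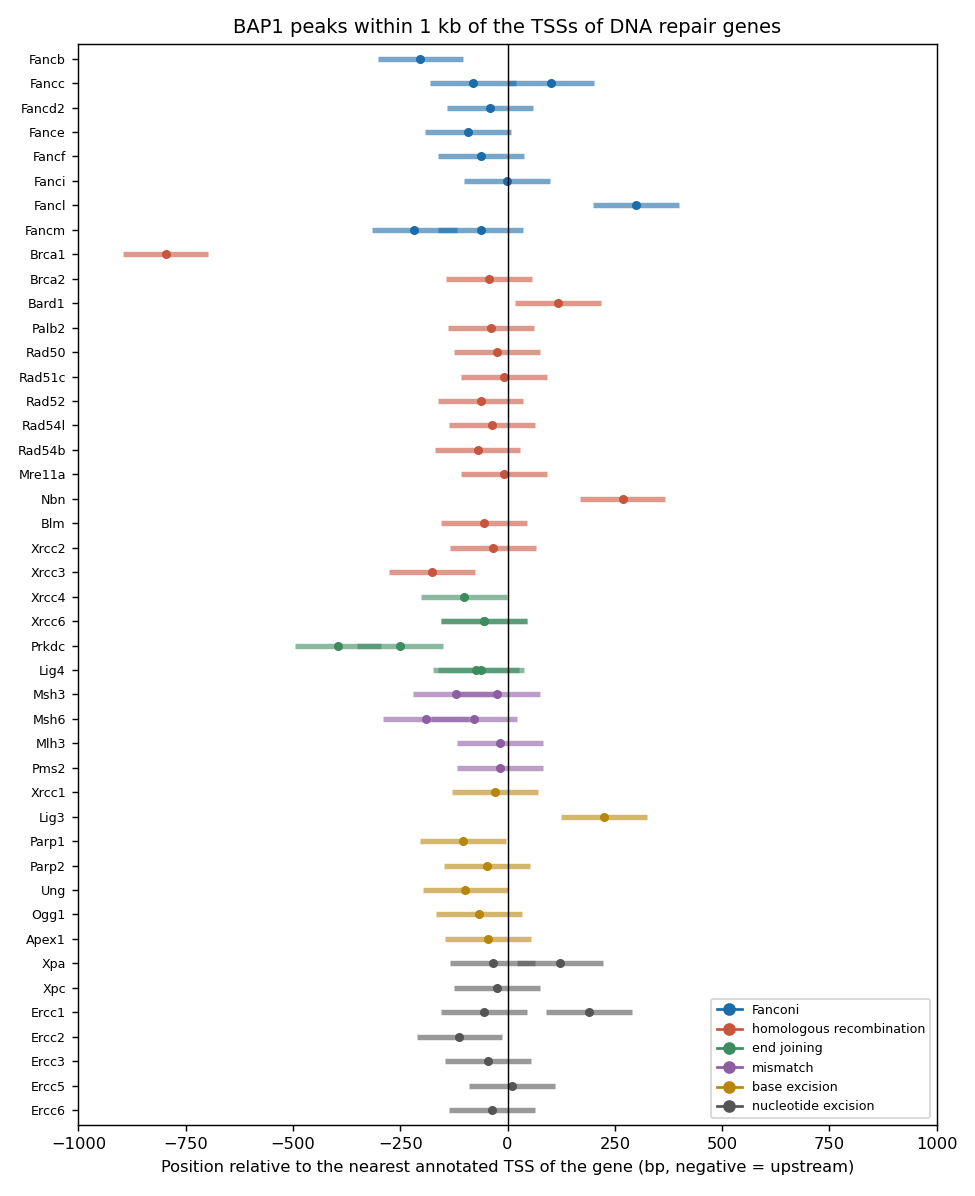
Every BAP1 peak within 1 kb of a TSS of the 44 repair genes that have one, coloured by pathway. The x axis is the position relative to the nearest annotated TSS of the gene in bp, dots are the middles and bars the 200 bp of each peak, and the pairs of Xrcc6, Lig4 and Msh3 fall on each other because each peak is placed by its own TSS. Most dots stand just left of the TSS line, and Brca1 stands apart at -797 bp.

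In the Fanconi pathway, the core complex that ubiquitinates the FANCD2 and FANCI pair is built of most of the listed proteins. Peaks were found at the core genes Fancb (203 bp upstream), Fancc (80 bp upstream), Fance (92 bp upstream), Fancf (62 bp upstream), Fancm (63 bp upstream) and Fancl (300 bp downstream), the last of which encodes the ubiquitin ligase subunit. Both substrates were bound close to the TSS. The peak of Fanci (chr7:86537109-86537308) was centred 2 bp from a TSS, the nearest of all repair genes, and that of Fancd2 (chr6:113481536-113481735) lay 41 bp upstream. The core members Fanca and Fancg had no peak within 1 kb.

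All 14 homologous recombination genes had a peak. The 3 genes of the complex that senses and trims broken ends, Mre11a, Rad50 and Nbn, had peaks 9 bp upstream, 24 bp upstream and 268 bp downstream. For the tumor suppressors of the pathway, the peak of Brca2, which loads the recombinase on single-stranded DNA, lay 43 bp upstream, and that of Palb2, which bridges both BRCA proteins, 39 bp upstream. Bard1, the partner of BRCA1 in its ubiquitin ligase, had a peak 117 bp downstream, in an untranslated exon part. Brca1 itself, on the minus strand of chr11 from 101350078 to 101413269, had a single peak at chr11:101413967-101414166, 797 bp upstream of its TSS and the farthest from a TSS among all repair genes with a peak. The recombinase paralogs Rad51c, Xrcc2 and Xrcc3 had peaks 9, 34 and 177 bp upstream. The peaks of the helicase gene Blm, the annealing factor Rad52 and the DNA translocases Rad54l and Rad54b lay 55, 63, 37 and 70 bp upstream. Of the 14 peaks of the pathway 10 covered the TSS, beside 77.7% over all protein-coding genes with a gene-proximal peak.

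End joining begins with the Ku heterodimer at the broken ends, which holds the kinase subunit encoded by Prkdc, and ends with ligation by the XRCC4 and LIG4 complex. Peaks were found at Xrcc6, which encodes Ku70 (54 bp upstream), Xrcc4 (101 bp upstream), Lig4 (61 bp upstream) and Prkdc (251 bp upstream). None was found within 1 kb of Xrcc5, which encodes Ku80, the other subunit of the dimer. The peaks of 2 of these genes covered a TSS, beside 77.7% over all protein-coding genes with a gene-proximal peak. The nearest peak of each bound gene lay between -251 and -54 bp.

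The peaks of the mismatch repair genes had a median position of -21.5 bp. Msh6 and Msh3, whose products each pair with a common partner to recognise mismatches and loops, had peaks 79 and 25 bp upstream. The peaks of Pms2 and Mlh3, which encode nuclease subunits of the later step, both lay 18 bp upstream. All 4 covered the TSS, beside 77.7% over all protein-coding genes with a gene-proximal peak.

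All 7 listed base excision repair genes had a peak, beside 39.6% of all protein-coding genes. Of 11 further genes of this pathway, described below, 8 had one (72.7%). The glycosylase genes Ung and Ogg1, which remove uracil and oxidised guanine, had peaks 98 and 67 bp upstream. Apex1, the endonuclease that cuts at the vacant site, had one 45 bp upstream, and the scaffold gene Xrcc1 one 29 bp upstream. Lig3, the ligase that XRCC1 carries, had its peak 225 bp downstream of the nearest TSS, in an intron. Parp1 and Parp2, which encode the sensors of single-strand breaks, had peaks 103 and 48 bp upstream.

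In nucleotide excision repair, Xpc finds the lesion, Ercc2 and Ercc3 encode the helicases of TFIIH that open it, Xpa checks it, Ercc5 and the ERCC1 and ERCC4 pair cut on either side, and Ercc6 serves the branch that acts on stalled transcription. The peaks of Xpc, Ercc2, Ercc3, Xpa, Ercc1 and Ercc6 lay 25, 112, 45, 35, 55 and 36 bp upstream, and that of Ercc5 was centred 11 bp downstream of a TSS. Ercc4 had none. Ku and the ERCC1 and ERCC4 nuclease are both heterodimers, and in each of them the gene of one partner (Xrcc6, Ercc1) had 2 peaks and that of the other (Xrcc5, Ercc4) had no gene-proximal peak. These pairs were singled out after their values were seen, and in others, such as Fancd2 with Fanci, Brca1 with Bard1 and Xrcc4 with Lig4, both genes had one.

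Peaks did lie in the wider surroundings of the 4 genes that had none within 1 kb. The peak nearest to any TSS of the gene lay 3351 bp away in Fancg, 14073 bp in Fanca, 23065 bp in Xrcc5 and 28127 bp in Ercc4. Of the 13517 protein-coding genes that lacked a gene-proximal peak, 5199 (38.5%) had one within 50 kb. At Fanca (chr8:125792200-125842476, minus strand) the nearest peak lies by the TSS of Spire2. The distances of Fancg and Ercc4 are to internal TSSs of noncoding transcripts, and from the TSS of the coding transcript they are 9774 and 50834 bp. At this TSS the CpG ratio was 0.615 in Fanca, 0.559 in Fancg, 0.609 in Xrcc5 and 0.880 in Ercc4. Measured to the TSS nearest to a peak, the limit of 1 kb fell in a wide gap. Brca1 at 797 bp was the last gene inside it and Fancg at 3351 bp the first outside. From the TSS of the longest coding transcript, Fancl lay 1367 bp from its nearest peak, within that gap.

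More than 1 peak within 1 kb of a TSS was found in 9 of the 44 bound repair genes (20.5%, 11.2 to 34.5), beside 25.5% (2256 of 8850) of bound protein-coding genes. Each of the 9 genes had 2, which brings the repair genes to 53 peaks. In 5 of them the peaks overlap, with middles 112 bp apart in Msh6, 145 bp in Prkdc, 154 bp in Fancm, 165 bp in Xpa and 182 bp in Fancc. Fancm and Msh6 carried the second peak farther upstream, at 217 and 191 bp. Xpa and Fancc had it on the other side of a TSS, 123 bp downstream in a coding exon and 102 bp downstream. The second peak of Ercc1 lay 189 bp downstream of a TSS, in an intron.

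The remaining pairs belong to separate start sites. The peaks of Xrcc6 are 849 bp apart, at chr15:81845796-81845995 and chr15:81846645-81846844, and stand 54 and 55 bp upstream of 2 different TSSs of the gene. In Lig4 they are 1376 bp apart, 61 and 74 bp upstream of its 2 TSSs, and the outer peak is also within 1 kb of Abhd13. In Msh3 they are 393 bp apart, 25 and 120 bp upstream of separate TSSs. Among the 48 genes, Prkdc alone had peaks in its body beyond 1 kb of a TSS (2.08%), beside 1139 of 22367 protein-coding genes (5.09%). These lay in introns 106032 and 185567 bp downstream of the TSS, at chr16:15743892-15744091 and chr16:15823427-15823626, in addition to the pair at 251 and 396 bp upstream.

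Some of the peaks lie by the start of another gene as well. In 15 of the 44 bound repair genes (34.1%) the nearest peak was also within 1 kb of a TSS of another protein-coding gene, beside 24.4% (2157 of 8850) of all bound protein-coding genes. In 13 of these the pair is divergent, that is, the other gene starts on the opposite strand at most 1 kb upstream. Genes in divergent pairs make up 27.1% of the repair genes and 9.18% of all protein-coding genes. Among genes with a gene-proximal peak they make up 29.5% of the repair genes and 20.5% of the protein-coding genes. Of the 2053 protein-coding genes in such pairs, 88.4% had a gene-proximal peak. Outside divergent pairs a peak was found in 31 of 35 repair genes (88.6%), beside 34.6% of protein-coding genes.

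The shared peak was nearer to the repair gene in 8 of the 15 pairs and nearer to the other gene in 7. The peak assigned to Brca1 lay 98 bp from a TSS of Nbr1, an autophagy receptor gene. The Nbr1 TSS closest to Brca1, 194 bp upstream of it, is a different one and lies farther from the peak. The Fancd2 peak lay 3 bp from the TSS of Tmem111, the Fancb peak 14 bp from that of Mospd2, the Xrcc4 peak 25 bp from that of Tmem167 and the Apex1 peak 30 bp from that of Osgep. At Prkdc the peak stood 215 bp from the TSS of Mcm4, a subunit of the replicative helicase, whose TSS is 466 bp away. The Xrcc3 peak was 120 bp from the TSS of Zfyve21. Among those nearer to the repair gene were Palb2 with Dctn5, Pms2 with Aimp2, Fancf with Gas2, Rad54l with Pomgnt1, Xpc with Lsm3, Rad51c with Tex14 and Xrcc6 with Pppde2. From the position of a peak alone, binding for one gene of a pair and binding for the other cannot be told apart.

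The promoters of the repair genes were rich in CpG. The CpG ratio, observed over expected in 500 bp on either side of the TSS nearest to a peak, had a median of 0.780 (quartiles 0.720 and 0.873) and was at least 0.6 in 42 of the 48 genes (87.5%). Over all protein-coding genes the median was 0.528 and 44.8% reached the limit, while among those with a gene-proximal peak the median was 0.771 and 85.4% did. The share of protein-coding genes with a peak was 3.56% below a ratio of 0.4, 32.5% from 0.4 to 0.6, 70.2% from 0.6 to 0.8 and 81.8% from 0.8 to 1.0. The repair genes with peaks numbered 0 of 2, 4 of 4, 18 of 20 and 21 of 21 in these bins. The 4 genes from 0.4 to 0.6 were Rad54l (0.444), Fancb (0.507), Xrcc6 (0.511) and Ercc1 (0.533). The highest ratio was 1.134, in Fancf. The lowest, 0.167 in Fancg and 0.255 in Ercc4, belong to the internal TSSs described above, since the TSS nearest to a peak was used for every gene. Fancg and Ercc4 are the 2 genes of the bin below 0.4. At their coding TSSs the ratios were 0.559 and 0.880, so neither would fall in that bin and Ercc4 would count as CpG-rich without a peak. With the TSS of the longest transcript instead, 39 of 41 CpG-rich repair genes (95.1%) had a peak, beside 69.9% of CpG-rich protein-coding genes.

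**Figure D3:**
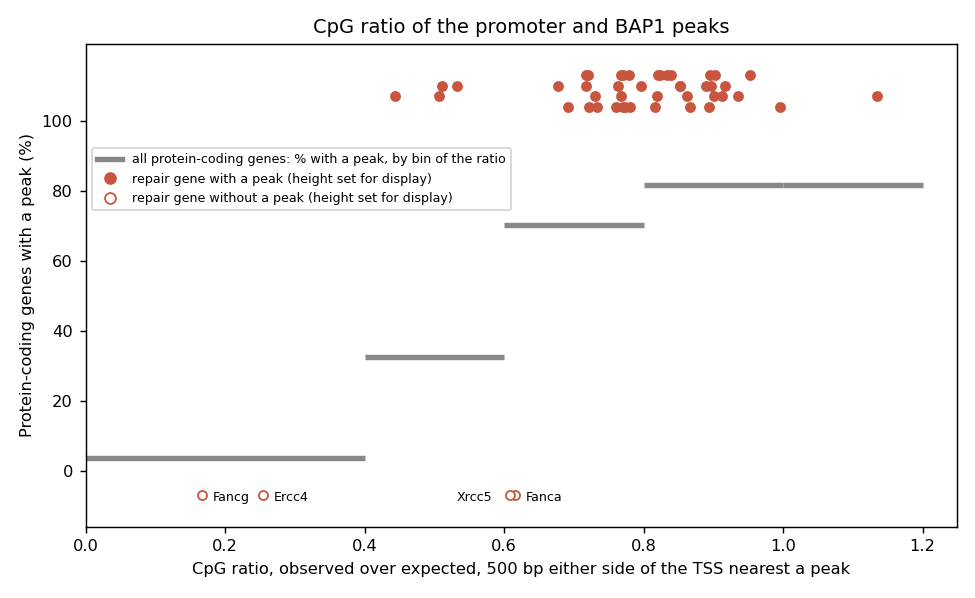
CpG ratio (observed over expected, 500 bp either side of the TSS nearest a peak) on the x axis and the share of all protein-coding genes with a BAP1 peak (%) on the y axis, as grey bars by bin of the ratio. Dots are the 48 repair genes, filled with and open without a peak, at heights set for display. The grey bars run from 3.56% to 81.8%, and most filled dots lie above 0.6.

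The promoters, taken from 250 bp before to 50 bp after the TSS, were searched on both strands for 10 motifs. These were ETS (CCGGAA), NFY (CCAAT), YY1 (ATGGCGG), E2F (TTTGGCG or TTTCCCG or TTCCCGC, which can overlap each other), CHR (TTTGAA or TTCGAA), CRE (TGACGTCA), SP/KLF (GGGCGG), E-box (CACGTG), NRF1 (GCGCATGC) and TATA box (TATAAA). A match shows only that the letters are present. The most frequent were SP/KLF in 34 of 48 promoters (70.8%), beside 72.8% of bound protein-coding promoters and 43.3% of all, and NFY in 25 (52.1%), beside 39.8% and 37.5%. E2F matches, named for the factors that drive genes of the G1 to S transition, were found in 19 promoters (39.6%), beside 16.4% of bound and 9.83% of all protein-coding promoters. NRF1 matches were found in 11 (22.9%), beside 7.10% and 3.43%. ETS matches stood at 39.6%, beside 36.4% and 18.3%, and YY1 matches at 10.4%, beside 11.2% and 5.55%. E-box matches were found in 8 promoters (16.7%, beside 11.1% and 7.78%), CHR in 6 (12.5%, beside 12.3% and 17.5%) and CRE in 2 (4.17%, beside 4.19% and 2.30%). A TATA match was found in 1, that of Brca2 (2.08%, beside 4.99% and 13.3%). The 48 include the 4 genes without a peak, of which Fancg and Ercc4 were searched at internal TSSs. In the 44 repair genes with a peak, E2F stood at 43.2%, NRF1 at 22.7%, ETS at 43.2%, NFY at 50.0% and SP/KLF at 75.0%.

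**Figure D4:**
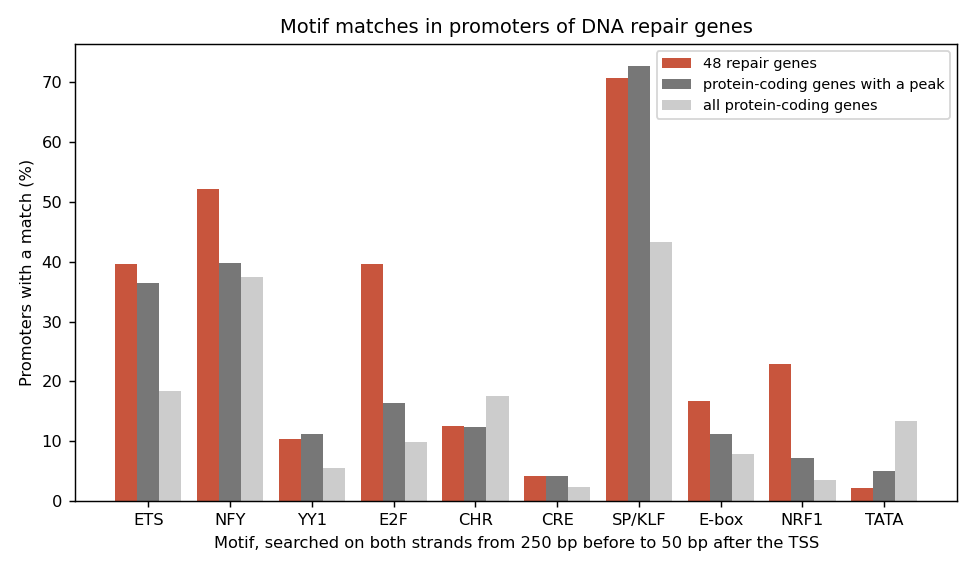
Share of promoters (%) that hold each of 10 motifs, in the 48 repair genes, in the 8850 protein-coding genes with a gene-proximal peak and in all 22367 protein-coding genes. The largest gaps between repair genes and bound genes are those of E2F (39.6% and 16.4%) and NRF1 (22.9% and 7.10%). The 48 include 4 genes without a peak, and in the 44 with one these shares were 43.2% and 22.7%.

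By pathway, E2F matches were present in 5 of 10 Fanconi genes (Fancb, Fancd2, Fanci, Fancl and Fancm), 6 of 14 homologous recombination genes (Brca2, Bard1, Rad50, Rad52, Rad54b and Nbn), 3 of 5 end joining genes (Xrcc4, Xrcc6 and Prkdc), 3 of 4 mismatch genes (Msh3, Msh6 and Pms2) and 2 of 8 nucleotide excision genes (Xpc and Ercc5). None of the 7 base excision genes had one. E-box matches were found in 5 of these 7, Lig3, Parp1, Parp2, Ung and Apex1, and elsewhere in Rad50, Xrcc5 and Ercc6. Over all bound protein-coding promoters the E-box share was 11.1%. This contrast was picked out after the values were seen, in groups of 4 to 14 genes, and was not tested. NRF1 matches occurred in every pathway, in Fanci, Fancm, Rad54b, Xrcc2, Xrcc5, Prkdc, Mlh3, Xrcc1, Parp2, Xpa and Ercc6.

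**Figure D5:**
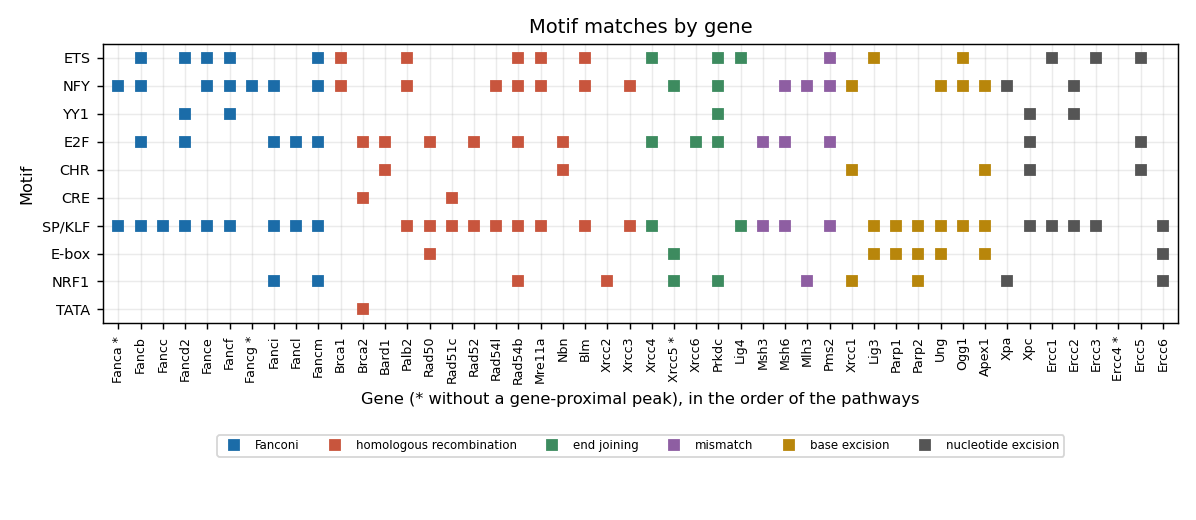
Motif matches (rows) in the promoter of each of the 48 repair genes (columns, ordered and coloured by pathway), with asterisks for the 4 that have no gene-proximal peak. A filled square is at least 1 match from 250 bp before to 50 bp after the TSS nearest a peak. The 7 base excision genes have no square in the E2F row and 5 in the E-box row.

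The bases within 100 bp of the middle of the nearest peak made up 54.7% of the searched window in bound repair promoters. In all bound protein-coding promoters they made up 51.5%. Many matches thus fall there by the choice of the window alone. These bases held 20 of 26 ETS matches (76.9%, beside 75.9% in all bound protein-coding promoters) and 52 of 67 SP/KLF matches (77.6%, beside 72.8%). The same bases held 33 of 41 NFY matches (80.5%, beside 63.3%), 15 of 25 E2F matches (beside 55.8%) and 9 of 12 NRF1 matches (75.0%, beside 80.8%). The other motifs had fewer than 10 matches each. The bases held 2 of 6 YY1 matches (33.3%, beside 66.1%), 1 of 7 CHR (14.3%, beside 34.3%) and 7 of 9 E-box (77.8%, beside 64.6%). They also held 2 of 2 CRE matches (beside 83.2%) and 0 of 1 TATA (beside 36.4%). None of these shares was tested. The promoters without a peak were not empty of motifs. At their coding TSS, Fanca held NFY and SP/KLF matches, Fancg ETS and E2F, Xrcc5 NFY, E-box and NRF1, and Ercc4 ETS and NFY.

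The pathways hold further genes, and 57 others were looked up in the same way. A gene-proximal peak was found at 50 of them (87.7%, 76.8 to 93.9), with a median position of -49.5 bp, against the 39.6% of all protein-coding genes. Every one of the 15 further homologous recombination genes and 14 nucleotide excision genes had a peak, as did 4 of 5 Fanconi, 9 of 10 end joining and 8 of 11 base excision genes. Both further mismatch family genes, Msh4 and Msh5, whose products act in meiotic recombination rather than in mismatch correction, lacked one, with the nearest peaks 6845 and 2916 bp upstream, by the TSSs of Rabggtb and Clic1. The other genes without a peak were Fan1, a nuclease of cross-link repair (18131 bp upstream), Nhej1, which aids the XRCC4 and LIG4 ligase (28346 bp upstream), the glycosylases Neil2 and Smug1 (15595 and 5412 bp downstream), and Apex2, a relative of Apex1 (107946 bp downstream). CpG ratios of these 7 ranged from 0.077 in Nhej1 to 0.705 in Msh5. In the 57 promoters E2F matches stood at 35.1%, ETS at 56.1% and NRF1 at 8.77%.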

How the data were processed

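ChIP-Seq reads were mapped by the authors to the mouse mm9 genome with Bowtie 1.0.0, and peaks were called with MACS (1.4.2 in the submitters' processing notes) against input DNA. The deposited file holds other values than counts: the start and end in bp of 13164 peaks of 200 bp, with no score. The peak threshold and the rule that joined both samples are not given in the sources used here. A stricter or looser threshold would change every share. Read depth is unknown, and 0 per-sample columns were left unmatched.

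Peaks were placed on GENCODE M1 (NCBIM37, mm9) by their middle, with all TSSs of 22367 protein-coding genes. The promoter CpG ratio, the motif window and divergent pairs (TSSs at most 1 kb apart) were taken at the TSS nearest to a peak. Rad54b has more than 1 gene identifier, and the one with the longest coding sequence was used. The 48 genes, the further 57, the motifs and the comparisons were chosen with earlier results of these data known. Named in detail were all genes without or with several peaks, those with the nearest and the farthest, the 3 lowest CpG ratios, partners that share a peak (1 of which is not reported here), and further repair genes without a peak. No test or set test was made, and intervals are 95% Wilson intervals.

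The code was tested on simulated data: 2000 of 2000 distances equaled those of bedtools 2.31.1, and 1000 of 1000 planted motifs were found. Python 3.11.15, numpy 2.4.6, pysam 0.24.0 and matplotlib 3.10.9 were used. The alternatives were other windows, the edge of the peak, other TSS sets, merged peaks, and other windows for CpG, motifs and divergent pairs.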

Additional observations from a re-analysis of the deposited data

How the results depend on the processing

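Of 101 alternative values, 86 stayed within the interval or spread of the main value. The intervals are wide for small groups and narrow for the 22367 protein-coding genes, so this count depends on group size. The share of all protein-coding genes with a gene-proximal peak was 38.6% with a window of 500 bp, 40.4% with 2 kb, 42.5% with 5 kb and 37.0% with 1 TSS per gene. The share of CpG-rich protein-coding genes was 74.3% with 500 bp, 76.7% with 5 kb, 71.2% with 1 TSS per gene, and 69.9% with the CpG ratio taken at the longest transcript, an alternative chosen after seeing the data. The shares of the repair genes and of each of their pathways stayed within their Wilson intervals under every alternative tried. Fanca, Xrcc5 and Ercc4 had no peak under any of the alternatives. The repair shares that follow for the wider stretch count all 48 genes, with the 4 that have no peak. In 500 bp on either side of the TSS, in place of the promoter window, matches were found in 54.2% of repair genes for E2F (39.0% of bound protein-coding genes), 64.6% for ETS (58.5%), 81.2% for NFY (66.2%), 83.3% for SP/KLF (90.8%), 50.0% for CHR (39.1%), 29.2% for TATA (17.6%), 20.8% for YY1 (25.8%), 29.2% for E-box (22.7%) and in 12 of 48 for NRF1 (9.97%). In the 200 bp of the peak, E2F matches were found in 31.8%, NFY in 40.9%, ETS in 38.6% and SP/KLF in 75.0% of bound repair genes. NRF1 matches were found there in 20.5%, E-box in 13.6%, YY1 and CRE in 4.55% each, and CHR and TATA in 2.27% each. For the bases of the peak no share over all bound protein-coding genes is given, so these values lack a background. No paired analysis was possible because the result comes from no test. The deposited list gives no height and no depth, and the study's supplementary values for its peaks were not used here, so a weak peak and a strong one count alike, and a gene without a listed peak may be bound below the unstated threshold.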
